A study of Mus musculus with 6 samples.

Results

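Genes of the blood-brain barrier endothelium and of the mural cells that surround it were followed in mouse brain after transient occlusion of the middle cerebral artery. The set holds 37 gene symbols, and all 37 matched a row of the deposited expression table, which has 56826 rows, 23473 of them named by a gene symbol. The members were chosen by symbol for their known cell type, with earlier results of these data known. Of these, 8 encode junction and adhesion proteins, 5 encode transporters, 12 encode other endothelial proteins (receptors, surface and secreted proteins, transcription factors), 6 are pericyte genes and 6 are contractile genes of smooth muscle.

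Endothelial cells of brain capillaries are sealed to each other by tight junctions and carry transporters that decide which solutes pass between blood and brain. Pericytes and smooth muscle cells, together called mural cells, are wrapped around these vessels, set their diameter and help to keep the barrier closed. Occlusion followed by reperfusion is a model of ischemic stroke in which leakage of this barrier is a known feature.

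Both groups were adult male C57BL/6 mice of 8 to 9 weeks under chloral hydrate anaesthesia. In the ischemia/reperfusion group (3 libraries) a coated filament blocked the middle cerebral artery for 60 min and was then withdrawn, with 6 h of reperfusion. The sham group (3 libraries) had the same neck surgery with no filament. The tissue is labelled brain, with no hemisphere or region, and neuron, astrocyte, oligodendrocyte and microglia markers were detected in every library. The labels do not say that each library is a separate animal, and p-values therefore measure only the spread among these libraries, part of which may be technical.

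Library totals ranged from 45425867 to 49686109 counts. Values are given as CPM, the count per 1000000 counts of the library, or, where genes are compared with each other, as RPKM, which also divides by row length. Fold changes are log2 values of ischemia/reperfusion over sham, with 3 libraries per group. In bulk tissue, fewer cells of a type and less RNA per cell cannot be told apart.

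No member passed an adjusted p of 0.05 in edgeR's quasi-likelihood test with Benjamini-Hochberg adjustment over 40170 rows, a threshold that 0.00249% of all rows passed. At an unadjusted p under 0.05 there were 6 members, 16.2% of the 37, close to the 15.6% of all rows and the 15.1% of gene-symbol rows at that level. Slc7a5, Tie1, Emcn and Notch3 were the 4 with positive fold changes (8.73% of all rows), and Mfsd2a and Ocln the 2 with negative ones (6.9% of all rows). DESeq2 called 2 members, Mfsd2a and Slc7a5, where it called 1.8% of the rows to which it gave an adjusted p, and limma-voom called 0. The groups did not overlap in 4 members, Slc7a5, Emcn, Notch3 and Mfsd2a, or 10.8%, against 20.9% of all rows and 19.1% of gene-symbol rows. The median log2 fold change was 0.03 over the 37 members, 0.02 over all rows and −0.04 over gene-symbol rows.

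**Figure D1:**
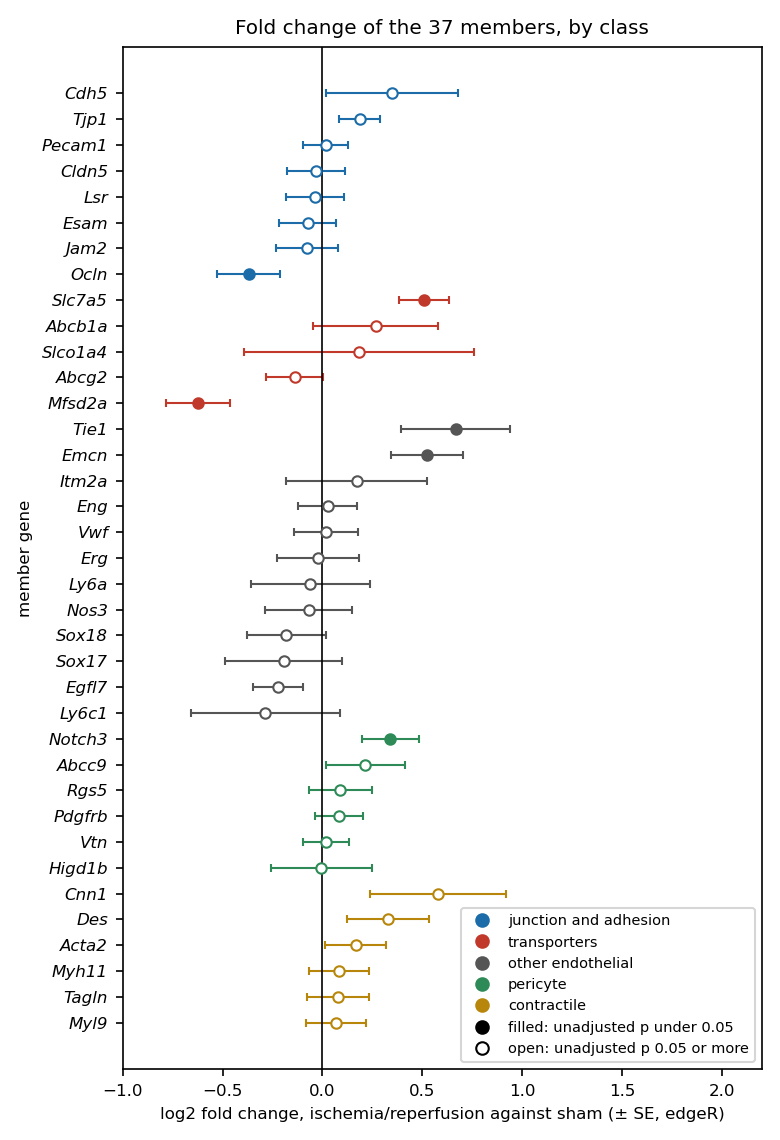
Log2 fold change of ischemia/reperfusion over sham (horizontal axis, ± SE, 3 libraries per group, edgeR) for the 37 members (vertical axis), coloured by class and sorted within it. Filled points are the 6 members with an unadjusted p under 0.05, and most of the open points lie near 0, with longer error bars for Slco1a4, Ly6c1 and Itm2a.

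The 5 transporters held both of the members that DESeq2 called, and those had opposite signs. Mfsd2a, a lipid transporter of barrier endothelium that carries lysophospholipids with omega-3 fatty acids and restrains vesicle traffic across the cell, lies on chromosome 4 from 122946851 to 122961188 on the minus strand (mm10). Its level was 40.5, 34.7 and 38.8 CPM in sham replicates 1, 2 and 3 and 33.1, 20.1 and 23.9 CPM in ischemia/reperfusion replicates 1, 2 and 3. All 3 sham libraries were above all 3 ischemia/reperfusion libraries, with replicate 1 of the latter closest to sham. The log2 fold change was −0.62 ± 0.16 (SE), with an adjusted p of 0.162 in edgeR (0.0249 in DESeq2). Without ischemia/reperfusion replicate 1 it was −0.85 with an edgeR adjusted p of 0.0084. This was the only call of a member when 1 library was left out. That fit called 1057 of its 40919 rows, against 1 of 40170 rows with all libraries.

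The 250 bases upstream of the Mfsd2a start are shown because its level differed the most among the members with a negative fold change. They are the RefSeq sequence of build GRCm38.p6 at chr4:122961189-122961438, minus strand, 5′ to 3′, with the ETS core GGAA, or TTCC where it is on the other strand, in capitals.
Mfsd2a upstream: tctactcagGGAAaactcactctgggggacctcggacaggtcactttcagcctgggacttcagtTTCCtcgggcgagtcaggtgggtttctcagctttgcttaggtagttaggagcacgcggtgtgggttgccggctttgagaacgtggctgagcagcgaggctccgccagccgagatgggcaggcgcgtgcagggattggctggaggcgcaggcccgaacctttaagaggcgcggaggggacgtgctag
These 250 bases hold 2 such cores. ETS factors, Erg among them, are known regulators of endothelial genes, but GGAA was found in either strand of 96.0% of all 32851 windows of 300 bases (250 before a start and 50 after it), so its presence sets Mfsd2a apart from few genes. The RefSeq table held windows for 23 of the 37 members, and 21 of these 23 had GGAA. ACAAT, the core of the SOX motif bound by factors such as Sox17 and Sox18, was in 6 of 31 member windows and in 31.0% of all windows.

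Slc7a5 encodes the light chain of the transporter that brings large neutral amino acids across the barrier. It had 34.7, 35.9 and 38.8 CPM in the sham libraries and 65.1, 46.4 and 50.3 CPM after ischemia/reperfusion. Every ischemia/reperfusion library was above every sham library, with replicate 1 the highest. The log2 fold change was 0.51 ± 0.13 (SE), with an adjusted p of 0.155 in edgeR (0.044 in DESeq2). Slc3a2, the heavy chain that pairs with it, had 84.2, 82.5 and 83.1 CPM in sham against 121, 86.9 and 102 CPM in ischemia/reperfusion, also highest in replicate 1, and its log2 fold change was 0.25 ± 0.11 (SE, edgeR adjusted p = 0.31). Both chains are also made by other cells of the brain.

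Slco1a4, a carrier of organic anions, and Abcb1a, the efflux pump P-glycoprotein, depended on one sham library. Slco1a4 had 27.7, 7.73 and 31.4 CPM in sham against 18.3, 31.8 and 28.3 CPM in ischemia/reperfusion. Abcb1a had 23.7, 11.5 and 28.2 CPM against 22.6, 29.7 and 26.7 CPM. In both, sham replicate 2 was the lowest of the 6 libraries and the groups overlapped. Log2 fold changes were 0.18 ± 0.58 for Slco1a4 and 0.27 ± 0.31 for Abcb1a (SE), and without sham replicate 2 they were −0.22 and −0.03. For Abcg2, another efflux pump, the log2 fold change was −0.14 ± 0.14 (SE), and its 95% interval ran from −0.45 to 0.17. Reads of Slco1a4 and Abcb1a can be shared with close relatives in the same gene families, and the sources used here do not say how such reads were assigned.

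Among junction and adhesion genes, Cldn5, the main claudin of brain endothelial tight junctions, had nearly the same mean in both groups. Its level was 53.2, 73.9 and 49.8 CPM in sham against 57.3, 60.3 and 62.5 CPM in ischemia/reperfusion, so the 3 treated libraries lay inside the range of sham. The log2 fold change was −0.03 ± 0.14 (SE), its 95% interval ran from −0.35 to 0.28, and without sham replicate 2, the highest library, it was 0.17. Ocln, the tight junction protein occludin, had 11.5, 9.91 and 11.6 CPM in sham against 7.47, 8.11 and 11 CPM after ischemia/reperfusion. Replicate 3 of the latter lay within the sham range and the other two were below it. Its log2 fold change was −0.37 ± 0.16 (SE, edgeR unadjusted p = 0.0375, adjusted p = 0.297).

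Tjp1 encodes the scaffold protein ZO-1, which ties junction proteins to actin. It had 63.0, 59.8 and 72.2 CPM in sham against 80.8, 69.1 and 80.8 CPM in ischemia/reperfusion, and only ischemia/reperfusion replicate 2 fell within the sham range. The log2 fold change was 0.19 ± 0.10 (SE, edgeR adjusted p = 0.399). Cdh5, which encodes VE-cadherin of adherens junctions, had 7.65, 16.4 and 7.35 CPM in sham against 15.2, 11.2 and 15.4 CPM in ischemia/reperfusion. Sham replicate 2 stood above all other libraries, and the log2 fold change of 0.35 ± 0.33 (SE) was 0.84 without it (edgeR adjusted p = 0.164). Pecam1, Esam, Jam2 and Lsr, adhesion and tricellular junction genes, had log2 fold changes from −0.08 to 0.02 and adjusted p of at least 0.832.

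Tie1 and Emcn had the smallest p among the other endothelial genes. Tie1, a receptor that modulates angiopoietin signalling, had 4.03, 2.78 and 5.34 CPM in sham against 4.63, 6.5 and 8.92 CPM in ischemia/reperfusion. Only ischemia/reperfusion replicate 1 lay within the sham range. The log2 fold change was 0.67 ± 0.27 (SE, edgeR unadjusted p = 0.0344, adjusted p = 0.291), and it was 0.41 when ischemia/reperfusion replicate 3 was left out and 0.90 when sham replicate 3 was. Emcn, a sialomucin of capillary and venous endothelium, had 2.17, 2.43 and 2.33 CPM in sham against 3.34, 3.23 and 3.81 CPM in ischemia/reperfusion. All 3 treated libraries were above all 3 sham libraries, and the log2 fold change was 0.52 ± 0.18 (SE, edgeR adjusted p = 0.223).

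Ly6a and Ly6c1, surface proteins of brain endothelium encoded close together on chromosome 15, varied more between replicates than between groups. Ly6a had 21.1, 13.9 and 18.7 CPM in sham against 23.9, 10.3 and 19.5 CPM in ischemia/reperfusion. Ly6c1 had 47.9, 19.8 and 45.3 CPM in sham against 36.6, 23.0 and 36.7 CPM in ischemia/reperfusion. Replicate 2 was the lowest of each group for both genes, and the log2 fold changes were −0.06 ± 0.30 and −0.29 ± 0.37 (SE). Ly6c1 was −0.08 without sham replicate 1 and −0.59 without sham replicate 2. Reads of these 2 genes can be shared within the Ly6 family.

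The remaining 8 endothelial members were Eng (a co-receptor of transforming growth factor beta), Nos3 (endothelial nitric oxide synthase), Egfl7, Vwf (von Willebrand factor), Itm2a, Erg, Sox17 and Sox18. Their log2 fold changes ran from −0.22 for Egfl7 to 0.17 for Itm2a, with adjusted p of at least 0.41 in edgeR. Nos3 had 6.58, 11.8 and 6.53 CPM in sham against 8.09, 8.30 and 8.30 CPM in ischemia/reperfusion, with sham replicate 2 above all other libraries, and its log2 fold change of −0.07 was 0.28 without that library. Its row overlaps Atg9b on the other strand, which had a log2 fold change of −0.42, and the sources used here do not give the strand setting of the counts.

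**Figure D2:**
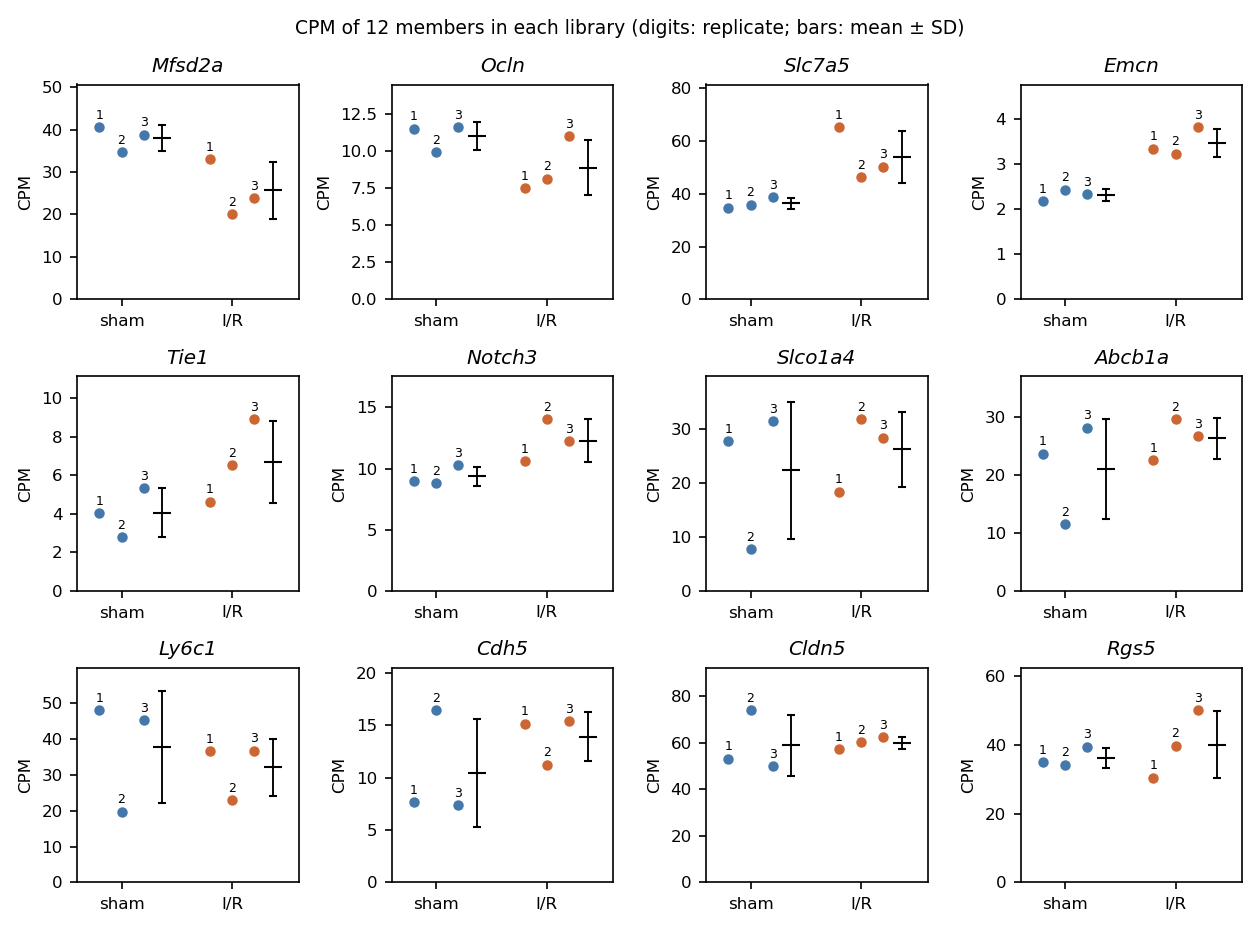
Level in CPM (vertical axis) in each library (points, with replicate numbers) of 12 members, sham and ischemia/reperfusion (I/R) side by side, with the mean ± SD to the right of the points. Mfsd2a, Slc7a5, Emcn and Notch3 show groups that do not overlap, and the other panels show groups that do.

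Notch3, the receptor by which mural cells respond to endothelial Jagged and Delta ligands, was the pericyte-class member with the smallest p. It is also made by smooth muscle. Its level was 8.96, 8.83 and 10.3 CPM in sham against 10.6, 14.1 and 12.2 CPM in ischemia/reperfusion. The groups did not overlap, with 0 of 3 treated libraries at or below the highest sham library, and the log2 fold change was 0.34 ± 0.14 (SE, edgeR unadjusted p = 0.0353, adjusted p = 0.292). Without ischemia/reperfusion replicate 2 it was 0.22.

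Rgs5, a regulator of G protein signalling used as a pericyte marker, had 35.0, 34.2 and 39.5 CPM in sham against 30.4, 39.8 and 49.9 CPM in ischemia/reperfusion. Vtn, vitronectin, had 51.1, 54.1 and 51.5 CPM and 46.8, 55.4 and 62.6 CPM. Abcc9, a subunit of the potassium channel of pericytes, had 6.62, 7.75 and 7.29 CPM and 6.26, 8.48 and 11.4 CPM. In all 3, ischemia/reperfusion replicate 1 was the lowest of the 6 libraries and replicate 3 the highest, so that the groups overlapped. Log2 fold changes were 0.09 ± 0.16, 0.02 ± 0.11 and 0.21 ± 0.20 (SE). Pdgfrb, the receptor through which endothelial platelet-derived growth factor recruits pericytes, had 0.08 ± 0.12 with a 95% interval from −0.18 to 0.35, and Higd1b had −0.01 ± 0.25 (SE).

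All 6 contractile genes had positive log2 fold changes, from 0.07 for Myl9 to 0.58 for Cnn1, and 0 of 6 reached an unadjusted p under 0.05. Cnn1, calponin, had 0.564, 1.31 and 1.19 CPM in sham against 1.17, 1.43 and 2.16 CPM in ischemia/reperfusion. Des, the intermediate filament desmin, had 2.21, 3.12 and 2.48 CPM and 3.11, 3.95 and 3.13 CPM. In both genes sham replicate 1 was the lowest library and the groups overlapped. Log2 fold changes were 0.58 ± 0.34 for Cnn1 and 0.33 ± 0.20 for Des (SE, edgeR adjusted p of 0.43 and 0.457). Leaving out sham replicate 1 gave 0.28 for Cnn1 and 0.22 for Des. Cnn1 was 0.30 when ischemia/reperfusion replicate 3 was left out, and Des was 0.19 when replicate 2 of that group was.

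Tagln, transgelin, had 11.8, 17.4 and 15.3 CPM in sham against 14.7, 15.8 and 18.3 CPM in ischemia/reperfusion. Myl9, the regulatory light chain of smooth muscle myosin, had 13.7, 17.1 and 16.7 CPM and 14.4, 16.8 and 20.8 CPM. Sham replicate 1 was again the lowest and ischemia/reperfusion replicate 3 the highest, and the log2 fold changes were 0.08 ± 0.15 and 0.07 ± 0.15 (SE). Acta2 and Myh11, smooth muscle actin and myosin heavy chain, had 0.17 ± 0.15 and 0.08 ± 0.15 (SE). Tagln lies opposite Pcsk7, which had 0.13.

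Contractile genes are classic targets of serum response factor, which binds the CArG box. This motif was found in 1 of 31 member windows, that of Myl9, and in 1.63% of all windows. The contractile genes Tagln and Myh11 were not among the 23 members with a window. The 60 bases around it, RefSeq build GRCm38.p6 at chr2:156775278-156775337, plus strand, are shown with the CArG box in capitals, from 161 to 152 bases before the start.
Myl9 CArG window: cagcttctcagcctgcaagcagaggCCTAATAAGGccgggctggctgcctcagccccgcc
A missing match in another member says only that these letters are not in that window, and these counts do not bear on whether the factor bound.

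**Figure D3:**
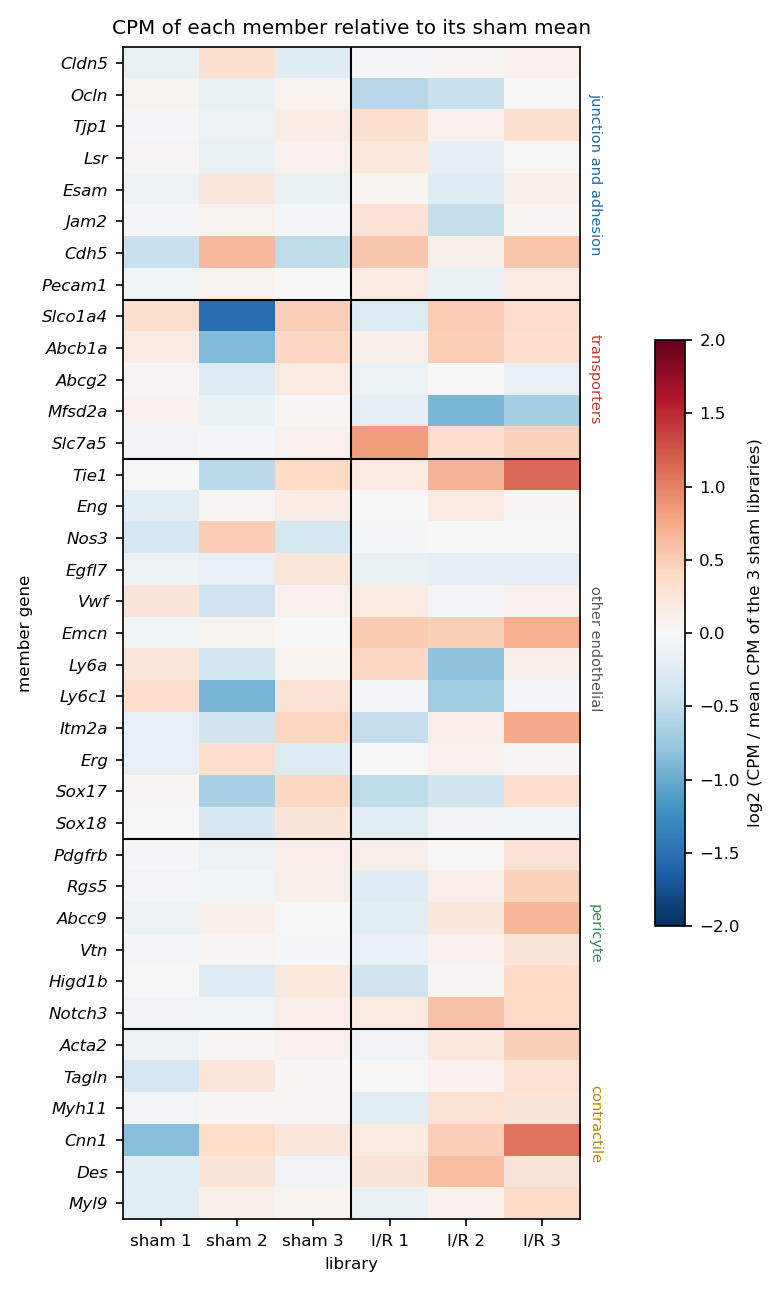
Level of each member (rows, by class) in each of the 6 libraries (columns) as the log2 ratio of CPM to the gene's sham mean, on a colour scale (I/R, ischemia/reperfusion). Sham replicate 2 stands apart in rows such as Slco1a4, Abcb1a, Ly6c1 and Cdh5, and ischemia/reperfusion replicate 3 is high in most mural rows.

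When the classes are set side by side, the medians of the log2 fold changes were −0.04 for junction and adhesion genes (3 of 8 positive), 0.18 for transporters (3 of 5), −0.04 for other endothelial genes (5 of 12), 0.09 for pericyte genes (5 of 6) and 0.12 for contractile genes (6 of 6). The 12 mural members together had a median of 0.09, with 11 of 12 positive, and the 25 endothelial members −0.03, with 11 of 25 positive. The 20 other endothelial identity genes, given further below, also had a median of 0.09, with 15 of 20 positive. Positive log2 fold changes made up 53.1% of all rows and 44.2% of gene-symbol rows. The differences between classes were not tested. The median of the transporters was −0.22 without sham replicate 2 and 0.50 without sham replicate 3. Without ischemia/reperfusion replicate 3 the median was −0.0043 for the 12 mural members, −0.054 for the pericyte genes and 0.019 for the contractile genes, and without ischemia/reperfusion replicate 1 the mural median was 0.24.

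The mural values moved with single libraries. Ischemia/reperfusion replicate 3 was the highest of the 6 libraries for 9 of 12 mural members, and replicate 1 was the lowest of its group for 11 of 12. Of the 25 endothelial members, replicate 3 was the highest library for 4 and replicate 1 the lowest of its group for 11. Such shares were not counted over all rows. The mean log2 CPM relative to sham was also highest of its group in replicate 3 for junction and adhesion (0.11) and other endothelial members (0.21), but not for transporters (0.07). Summed over the 6 pericyte genes, levels were 119, 121 and 128 CPM in sham against 113, 136 and 158 CPM in ischemia/reperfusion. The 8 oligodendrocyte and myelin markers, all detected in every library, summed to 4795, 4528 and 5686 CPM in sham replicates 1, 2 and 3. In ischemia/reperfusion replicates 1, 2 and 3 they summed to 3869, 4801 and 9973 CPM. The order was that of the pericyte sums in ischemia/reperfusion but not in sham. The other cell type lists had other orders in ischemia/reperfusion, such as 5190, 4992 and 4691 CPM for astrocyte markers and 195, 236 and 218 CPM for microglia markers. Fibroblast (117, 87.0 and 166 CPM) and choroid plexus markers (428, 22.4 and 1217 CPM) were also highest in replicate 3. Neuron, neutrophil and monocyte, and erythroid markers were not. Mean log2 CPM relative to sham had the pericyte order for other endothelial identity genes (0.005, 0.12 and 0.30) and other barrier transport genes (−0.20, 0.04 and 0.19). Other junction genes (0.04, −0.06 and 0.18) had another order. The part of tissue makeup in the mural values was not tested.

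**Figure D4:**
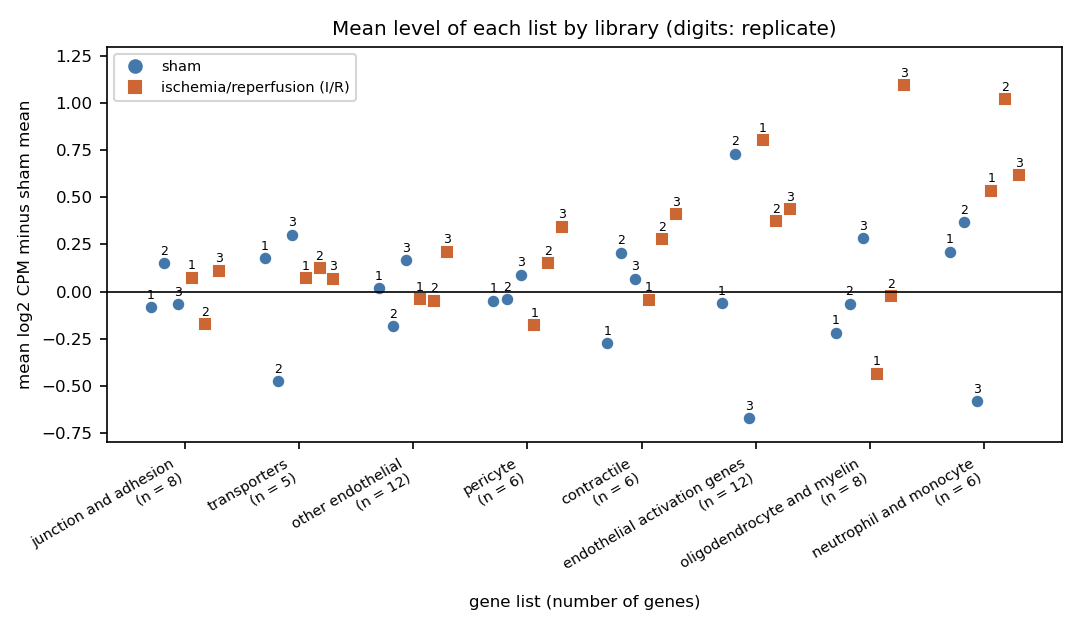
Score of each member class and of selected marker lists in each library, as the mean log2 CPM of the list minus its sham mean (vertical axis), with one point per library. After ischemia/reperfusion, replicates 1, 2 and 3 have pericyte scores of −0.18, 0.15 and 0.34 and myelin scores of −0.44, −0.02 and 1.10.

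Single sham libraries stood apart in endothelial members, sham replicate 2 in the most. By a ratio of 1.5, chosen after values were seen, 8 of 37 members (21.6%) stood outside the mean of the other 2 sham libraries in it, against 9.51% of gene-symbol rows. These were Slco1a4, Abcb1a, Ly6c1, Tie1, Vwf and Sox17, which were lower, and Cdh5 and Nos3, which were higher. All 8 were endothelial, and 0 of 12 mural members stood outside. By the same measure sham replicate 3 had 6 of 37 members outside (16.2%, against 8.46% of gene-symbol rows), also all endothelial, and sham replicate 1 had 2. Tie1, Slco1a4, Abcb1a, Sox17 and Cdh5 were outside in both sham replicates 2 and 3. Each library was compared with the mean of the other 2, so these counts are not independent. Ischemia/reperfusion replicate 1 had 8 of 37 outside (21.6%, against 14.5% of gene-symbol rows), 3 of them mural, so this count was not particular to sham replicate 2. The 12 endothelial activation genes, of which Sele and Selp had 1 count each in sham replicate 3, under the floor of 3 counts, summed to 96.3, 139 and 92.2 CPM in the sham libraries and to 110 to 127 CPM in ischemia/reperfusion. The part of activation in these differences was not tested.

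Per length, the most abundant member in sham was Cldn5 at 41.7 ± 9.21 RPKM (SD, n = 3), followed by Vtn at 29.9 ± 0.930 and Ly6c1 at 22.9 ± 9.47 RPKM. Rgs5 followed with 18.9 to 21.8 RPKM, and Ly6a and Mfsd2a had sham means of 17.9 and 17.7 RPKM. Vtn and Ly6c1 differed by less than the SD of Ly6c1, and the sham values of Ly6a overlapped those of both Rgs5 and Mfsd2a. The least abundant were Tie1 (1.04 RPKM), Abcc9 (0.958 RPKM) and Cnn1 (0.513 RPKM). After ischemia/reperfusion, Mfsd2a averaged 11.9 ± 3.12 and Slc7a5 15.3 ± 2.82 RPKM, whereas in sham Mfsd2a was the more abundant, at 17.7 ± 1.39 against 10.4 ± 0.598 RPKM (SD, n = 3).

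Other genes of the barrier are given by their counts at an unadjusted p under 0.05, which 15.6% of all rows reached. Of 15 other junction genes, 3 had an unadjusted p under 0.05 and a positive fold change and 0 a negative one, with a median of 0.02. These included the catenins Jup (0.41 ± 0.12) and Ctnnd1 (0.31 ± 0.12; log2 ± SE). Of 19 other transport genes, 1 (Slc3a2) was at that level, with a median of 0.06, and the glucose transporter Slc2a1 had −0.19 ± 0.10. Among 20 other endothelial identity genes, 2 positive and 2 negative fold changes reached that level. The median of the 20 was 0.09, with 15 positive. Kdr, the main receptor of vascular endothelial growth factor, had 0.57 ± 0.21 and Ramp2, a receptor-modifying protein, had −0.56 ± 0.21.

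Among 14 genes of barrier Wnt signalling, 1 positive and 2 negative fold changes had an unadjusted p under 0.05. The median of the 14 was 0.03, with 8 positive. Adgra2, a co-activator of Wnt7 signalling, had 7.57, 7.27 and 7.61 CPM in sham against 11.7, 9.37 and 12.4 CPM in ischemia/reperfusion, so the groups did not overlap, with a log2 fold change of 0.52 ± 0.14 (SE, edgeR adjusted p = 0.167). Tspan12, a co-receptor of norrin signalling, had −0.35 ± 0.13. Of 12 pericyte recruitment genes, 2 were higher and 1 lower, with Dll4, a Notch ligand, at 0.68 ± 0.26 and Angpt1, the ligand of Tie2, at −0.59 ± 0.19.

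Of 16 other pericyte genes tested, 0 had an unadjusted p under 0.05 in edgeR, and DESeq2 and limma-voom called 0 at an adjusted p under 0.05. Log2 fold changes of the 16 included 0.84 ± 0.38 for Anpep and −0.56 ± 0.30 for Ifitm1 (SE). Their median was 0.15, with 10 of 16 positive. Of 18 other smooth muscle genes tested, 2 were higher at an unadjusted p under 0.05, Smtn (0.69 ± 0.21) and Flna (0.41 ± 0.14), and 0 lower. The median of the 18 was 0.16, with 13 positive. Of 12 basement membrane genes, 1 was higher at that level, Hspg2, which encodes perlecan (0.41 ± 0.16), and 0 lower. The laminin gene Lama5 had 0.34 ± 0.16, and the median of the 12 was 0.21, with 10 positive. Of 12 endothelial activation genes, 2 had a positive and 1 a negative fold change at that level, with a median of 0.26 and 10 of 12 positive, and DESeq2 called 1 higher and 1 lower. Vcam1, a leukocyte adhesion molecule, was at −0.58 ± 0.13 (log2 ± SE, edgeR adjusted p = 0.15), and was the lower of these calls.

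The markers of other cell types had these medians of log2 fold change: astrocytes −0.30, neurons −0.07, oligodendrocytes 0.32, microglia 0.17, neutrophils and monocytes 0.87, fibroblasts −0.16, choroid plexus −0.36 and erythroid cells 0.31. At an unadjusted p under 0.05 there were 3 of 8 astrocyte, 3 of 8 fibroblast, 1 of 8 neuron and 1 of 8 choroid plexus markers, all lower, 3 of 8 microglia and 4 of 6 neutrophil and monocyte markers, all higher, and 0 of 8 oligodendrocyte and 0 of 4 erythroid markers. Choroid plexus markers summed to 22.4 CPM in ischemia/reperfusion replicate 2, against 428 and 1217 CPM in replicates 1 and 3. Some medians moved with single libraries. Without ischemia/reperfusion replicate 3 they were −0.27 for oligodendrocytes, −0.51 for fibroblasts and −1.23 for choroid plexus. Without replicate 2 of that group the choroid plexus median was 0.10. With 1 library left out, astrocytes ran from −0.40 to −0.18 and neutrophils and monocytes from 0.73 to 1.02.

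In the authors' deposited table, 13 of the 37 members had a q-value under 0.05, against 24.5% of its rows, 10 with a positive fold change (14.7% of its rows) and 3 with a negative one (9.77%). The lower ones were Ocln, Mfsd2a and Ly6c1. The higher ones were Tjp1, Cdh5, Slco1a4, Abcb1a, Slc7a5, Tie1, Emcn, Itm2a, Rgs5 and Notch3. The sources used here do not name the test behind these q-values. Slco1a4 had a q-value of 0.0021 in the authors' deposited table, while its log2 fold change in edgeR was 0.18 ± 0.58 (SE, adjusted p = 0.906).

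Rows named by a cDNA clone of the FANTOM3 collection overlapped 9 members on the same strand (14 rows, 10 tested). On the opposite strand they overlapped 7 members (10 rows, 8 tested). Values are given for the same strand. The 3 clone rows in Tjp1 all had positive log2 fold changes, from 0.08 to 0.70, with a median of 0.54 against 0.19 for the gene row. The 2 tested clone rows in Pecam1 had 0.02 and 0.13. The one tested clone row had 0.30 in Abcc9, 0.28 in Itm2a, 0.15 in Pdgfrb, −0.29 in Myh11 and −0.40 in Abcg2. The Myh11 clone row and 1 of those in Tjp1 had an edgeR unadjusted p under 0.05, as did 15.6% of all rows. The Myh11 gene row had a log2 fold change of 0.08. Some reads can be counted in both a clone row and its gene row.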

How the data were processed

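Brain total RNA was sequenced as read pairs after ribosomal RNA removal, per the labels' protocols. The genome build was mm10, per the submitters' processing notes. The sources used here do not name the aligner, counter, annotation or strand handling. The authors deposited whole-number counts and RPKM values per row, and the deposited RPKM equals the count per kilobase of deposited row length and 1000000 counts in 100% of values (relative tolerance 0.001). The authors' deposited comparison table holds RPKM means, log2 fold changes, p-values and q-values.

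The fit used edgeR 4.0.16 (R 4.3.3) on the counts, with TMM factors, filterByExpr and robust quasi-likelihood F tests (two-sided), and Benjamini-Hochberg adjusted p over 40170 rows. The SE was the log2 fold change divided by the square root of F. Intervals are at 95%. Alternatives were upper-quartile or RLE factors, gene rows alone, no filter or a minimum mean of 1 CPM, no robust estimation, DESeq2 1.42.0, limma-voom (limma 3.58.1), the replicate number as a block and leaving out each library. The tests were tested on simulated data. Scores used a prior count of 2.

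The members and lists were chosen with earlier results of these data known. Values per library are given for members with an unadjusted p under 0.05 and, per class, the 2 with the smallest p and the 2 with the highest RPKM; Cdh5, Nos3, Slco1a4 and Abcb1a were added after their values were seen. The 2 genes with the smallest p were named from each barrier and vascular list, except 1 that is not reported here. Of the listed genes, 7 were matched by gene ID under older symbols, and Gper1, Ly6g and Hbb-bs had no match.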

Additional observations from a re-analysis of the deposited data

How the results depend on the processing

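The number of rows called by edgeR was 1, and it was 2 with upper-quartile factors, 77 with no filter, 0 with a mean of at least 1 CPM, 584 with DESeq2, 4 with limma-voom, 4 without robust estimation and 0 on gene rows alone. Leaving out 1 library gave 0 to 1057 rows, the highest without ischemia/reperfusion replicate 1. Members called were 0 in edgeR, 2 with DESeq2 and 0 to 1 with 1 library left out. Members higher at an unadjusted p under 0.05 were 4, and 1 to 5 with 1 library left out, the lowest without sham replicate 1 or ischemia/reperfusion replicate 3. Members lower were 2, and 1 with upper-quartile factors, 1 with a mean of at least 1 CPM, 1 on gene rows alone and 1 to 3 with 1 library left out. The transporter median ranged from −0.22 to 0.50 with 1 library left out, and from 0.17 to 0.34 under the other alternatives. The pericyte median ran from −0.054 to 0.21 and the contractile median from 0.019 to 0.26 with 1 library left out.

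The 17 members picked by p or RPKM, which leave out Cdh5, Nos3, Slco1a4 and Abcb1a, gave 255 values under 15 alternatives. Of these, 236 kept their direction and side of the threshold and 16 turned direction. Another 3 passed the threshold: Mfsd2a in DESeq2 and without ischemia/reperfusion replicate 1, and Slc7a5 in DESeq2. Outside the 17, Slco1a4, Abcb1a and Nos3 turned direction without sham replicate 2 (−0.22, −0.03 and 0.28). Cdh5 stayed positive when any 1 library was left out. Cldn5 was 0.0095 with upper-quartile factors, 0.00059 with a mean of at least 1 CPM and 0.012 on gene rows alone. With 1 library left out, the log2 fold change ran from −0.15 to 0.17 for Cldn5, −0.33 to 0.21 for Ly6a, −0.097 to 0.25 for Rgs5, −0.023 to 0.40 for Abcc9, −0.086 to 0.11 for Vtn, −0.066 to 0.22 for Tagln and −0.080 to 0.18 for Myl9. Of those that kept their sign, Tie1 ran from 0.41 to 0.90, Cnn1 from 0.28 to 0.81, Des from 0.19 to 0.48, Notch3 from 0.22 to 0.43 and Ly6c1 from −0.59 to −0.077. The cause was not tested.

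Same-numbered libraries of the 2 groups correlated at −0.07, 0.03 and 0.11 in their deviations from the group means. Differently numbered ones correlated at −0.14 to 0.11. With 3 libraries per group, these values cannot decide whether the replicate numbers pair the samples. With the replicate number as a block, 0 rows were called in all and 0 members, with 4 positive and 2 negative members at an unadjusted p under 0.05, and the transporter median was 0.32. With 3 libraries per group, a member's SE of 0.10 to 0.58 limits what can be told apart. At these depths 3 counts are 0.0604 to 0.0660 CPM.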
